A study of Homo sapiens with 6 samples.

Results

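The genes described here are those that carry, receive and restrain WNT signals at and near the cell surface, with β-catenin and its partners, in Hep3B cells, an established human hepatocellular carcinoma cell line. They were taken by symbol, as the WNT ligands, the frizzled receptors (FZD), the co-receptors LRP5 and LRP6, the secreted inhibitors of the SFRP and DKK families and NOTUM, the R-spondin receptors LGR4 to LGR6, the ubiquitin ligases RNF43 and ZNRF3, CTNNB1, APC, AXIN1, AXIN2, GSK3B, NKD1, NKD2 and the TCF/LEF factors. The rule found 56 of the 23228 genes in the tables. RNA was sequenced in 3 control libraries, from cells given lentivirus with a non-targeting short hairpin RNA (shRNA), and in 3 libraries labelled PELP1-KD, from cells given lentivirus with shRNA against PELP1, a co-regulator of nuclear receptors. Both groups were grown in RPMI medium, and the labels describe puromycin selection and pooled stable clones for the knockdown cells. The titles name the first PELP1 shRNA, the protocol in the labels names both shRNAs of the study, and no harvest time is given.

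In the canonical branch of the pathway, a WNT protein bridges a frizzled receptor and LRP5 or LRP6, which stops the destruction complex of AXIN, APC and GSK3B from marking β-catenin for breakdown. β-catenin then enters the nucleus and works with TCF/LEF factors on target genes. Several of those targets, among them AXIN2, NKD1, NOTUM, RNF43, ZNRF3, LGR5 and LEF1, are themselves parts of the pathway, and many of them dampen it. In the liver the pathway is known for setting gene expression around the central vein, and it is often altered in hepatocellular carcinoma.

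Reads on genes numbered 26758363 to 34456542 per library. The standard error (SE) of a tested gene's log2 fold change had a median of 0.070 among the WNT genes and 0.063 among all 14537 genes tested. PELP1, the gene targeted, had 5338, 5127 and 5348 reads in control replicates 1, 2 and 3 and 4318, 4135 and 4846 in PELP1-KD replicates 1, 2 and 3. After scaling to library size the level was 4970 ± 115 normalized reads (SD, n = 3) in control and 4695 ± 238 (SD, n = 3) in PELP1-KD, or 94.5% of control. The groups did not overlap, with 4893, 4914 and 5102 normalized reads against 4421, 4825 and 4840. The log2 fold change was -0.08 (95% interval -0.17 to 0.004), which did not pass the test (adjusted p = 0.101), while it passed with the replicate number as a block (adjusted p = 0.0106) or without PELP1-KD replicate 3 (-0.10, adjusted p = 0.0180). The exact permutation test over the libraries gave p = 0.1, two-sided, the smallest that 3 against 3 allows. The difference in PELP1 RNA was thus small, and the groups are named by their labels throughout. All 9 hepatocyte markers examined (ALB, AFP, APOA1 and others) reached a mean of 1 RPKM, reads per 1000000 reads and per kilobase of exon, and their summed level was 10999 to 11198 RPKM in control and 10025 to 10170 in PELP1-KD. The markers differed in direction, since ALB lay at 4838 to 4988 RPKM in control and 3169 to 3246 in PELP1-KD and AFP at 2141 to 2254 and 3299 to 3510. With ALB, the levels of APOA1, APOB, TTR, TF and SERPINA1 were lower in every PELP1-KD library than in any control library, and with AFP those of FGB and HNF4A were higher. Of the markers of other cells, 2 of 6 for fibroblasts reached 1 RPKM, COL1A2 and LUM (sums over all 6 of 10.7 to 11.8 in control and 16.5 to 16.9 in PELP1-KD), 0 of 4 for endothelium (0.450 to 0.510 and 0.434 to 0.479, with CDH5 and KDR at 0) and 2 of 5 for immune cells, CD14 and CD68 (sums over all 5 of 25.1 to 28.2 and 33.4 to 35.9, with MS4A1 at 0). These lists were mixed too. COL1A2 and LUM were higher in PELP1-KD, while PDGFRB (0.730 to 0.866 RPKM in control and 0.171 to 0.200 in PELP1-KD) and PDGFRA (0.799 to 0.994 and 0.377 to 0.560) were lower. CD68 was higher (22.4 to 25.0 and 31.8 to 34.3) and CD14 lower (2.63 to 3.55 and 1.55 to 1.6). Their part in the results below was not tested. The labels do not say that the 3 libraries of a group came from separate cultures, so p-values measure the spread between these libraries, which may be technical.

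Of the 56 WNT genes, 35 had enough reads to be tested. By edgeR's quasi-likelihood test, 12 were higher and 14 lower in PELP1-KD at an adjusted p below 0.05, and 9 did not pass. The 26 called make up 74.3% of the WNT genes tested, against 53.6% of all genes tested, where 26.8% were higher and 26.8% lower. A change of at least 2-fold was called for 7 of the 35 WNT genes, against 7.65% of all genes tested. These were WNT11, LEF1 and FZD7, which rose, as did 2.85% of all genes by that much, and NKD1, NOTUM, FZD9 and SFRP4, which fell, as did 4.79%. In 23 genes (65.7%) the normalized reads of the groups did not overlap, against 58.8% of all genes. The changes went both ways, with a median log2 fold change of 0.010 over the WNT genes and 0.0044 over all genes tested, while the median size of the change was 0.329 and 0.195. Since these are bulk libraries, fewer cells with an RNA and less of it per cell cannot be told apart.

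**Figure D1:**
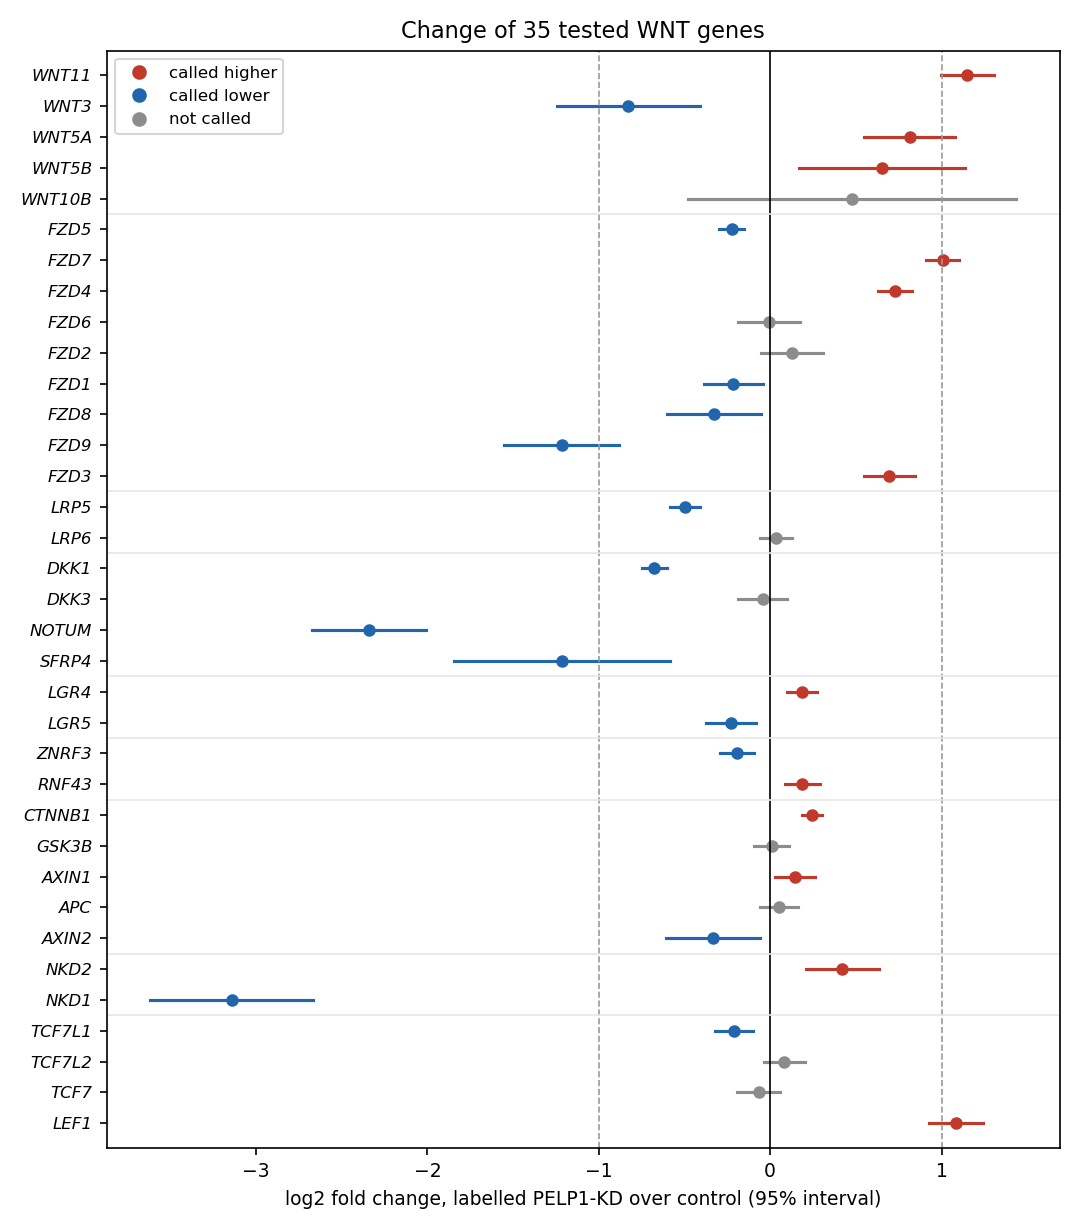
Log2 fold change of PELP1-KD over control (x axis) for the 35 WNT genes tested, in order of role, with 95% intervals as lines. Red marks genes called higher (12), blue genes called lower (14) and grey those not called (9), with dashed lines at a 2-fold change. NKD1 at -3.14 and NOTUM at -2.34 lie farthest from 0, and WNT11, LEF1 and FZD7 lie at or above 1.

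The genes that β-catenin is known to induce as feedback did not move together. NKD1 encodes an antagonist that binds Dishevelled, the relay protein below the frizzled receptors (chr16:50582241-50674771 of hg19, plus strand). It had 106, 98 and 116 reads in control and 13, 7 and 12 in PELP1-KD. Every control library lay far above every PELP1-KD library. In normalized reads the mean was 101 ± 8.87 in control and 11.2 ± 2.67 in PELP1-KD (SD, n = 3 each), so that NKD1 fell to 11.1% of control (log2 fold change -3.14, SE 0.23, adjusted p = 5.48e-10). At 0.367 RPKM in control it was among the lowest of the tested genes, and in PELP1-KD only 2 of its 3 libraries passed the cutoff of 0.310 reads per 1000000 that the filter on low counts used. NOTUM, a secreted enzyme that removes the lipid of WNT proteins, lies at chr17:79910383-79919057 on the minus strand. It had 228, 211 and 240 reads in control and 29, 36 and 54 in PELP1-KD. The groups were again far apart. It fell to 19.6% of control (log2 fold change -2.34, SE 0.16, adjusted p = 2.04e-10).

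AXIN2, a scaffold of the destruction complex that is widely read as a marker of β-catenin activity, had 122, 117 and 123 reads in control and 89, 75 and 92 in PELP1-KD. The groups did not overlap, but the difference was small, 114 ± 3.09 against 90.2 ± 2.34 normalized reads (SD, n = 3 each) and a log2 change of -0.33 (SE 0.13, adjusted p = 0.0374). The call was lost when any 1 of the 6 libraries was left out (adjusted p from 0.0629 to 0.100) and in DESeq2 (adjusted p = 0.110). LGR5, a receptor for R-spondins, the secreted proteins that stabilise frizzled receptors, had 554, 586 and 547 reads in control and 433, 404 and 445 in PELP1-KD. It fell by 0.23 on the log2 scale (adjusted p = 0.00974), and the call was lost without control replicate 2 (-0.19, adjusted p = 0.0634). ZNRF3, a ubiquitin ligase that removes frizzled receptors from the surface, had 1854, 1765 and 1844 reads in control and 1439, 1253 and 1569 in PELP1-KD. It fell by 0.19 on the log2 scale (adjusted p = 0.00175). Its paralog RNF43, with the same known role, went the other way. It had 1229, 1217 and 1210 reads in control and 1258, 1161 and 1284 in the smaller PELP1-KD libraries, which came to a log2 fold change of 0.19 (adjusted p = 0.00327). RNF43 shares 51 bases of exon with a gene on the other strand, LOC100506779.

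LEF1, a DNA-binding partner of β-catenin that is also its target in many cells, rose (chr4:108968701-109090112, minus strand). It had 311, 270 and 291 reads in control and 556, 481 and 611 in PELP1-KD. Every PELP1-KD library was above every control library. Mean levels were 274 ± 13.6 and 580 ± 26.3 normalized reads (SD, n = 3 each), or 212% of control in PELP1-KD (log2 fold change 1.08, SE 0.07, adjusted p = 2.62e-10). LEF1 shares 279 bases of exon with LOC641518 on the opposite strand, and the reads were counted by strand. Among the other TCF/LEF factors, TCF7L1, which often acts as a repressor, fell by 0.21 (adjusted p = 0.00251). TCF7L2, the factor most tied to β-catenin in liver cells, had 1156, 1058 and 1034 reads in control and 1034, 994 and 1030 in PELP1-KD. The groups overlapped after scaling, and its log2 fold change of 0.08 did not pass (95% interval -0.03 to 0.20, adjusted p = 0.225). TCF7 did not pass either (-0.07, adjusted p = 0.374).

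In control, TCF7L1 had the highest level per length of these factors at 13.1 RPKM and LEF1 the lowest. TCF7L1 had 1302, 1200 and 1322 reads in control and 993, 871 and 1083 in PELP1-KD, where its level was 11.3 RPKM. The summed level of the 4 factors was 28.6 to 30.1 RPKM in control and 29.2 to 30.8 in PELP1-KD, and these ranges overlapped.

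**Figure D2:**
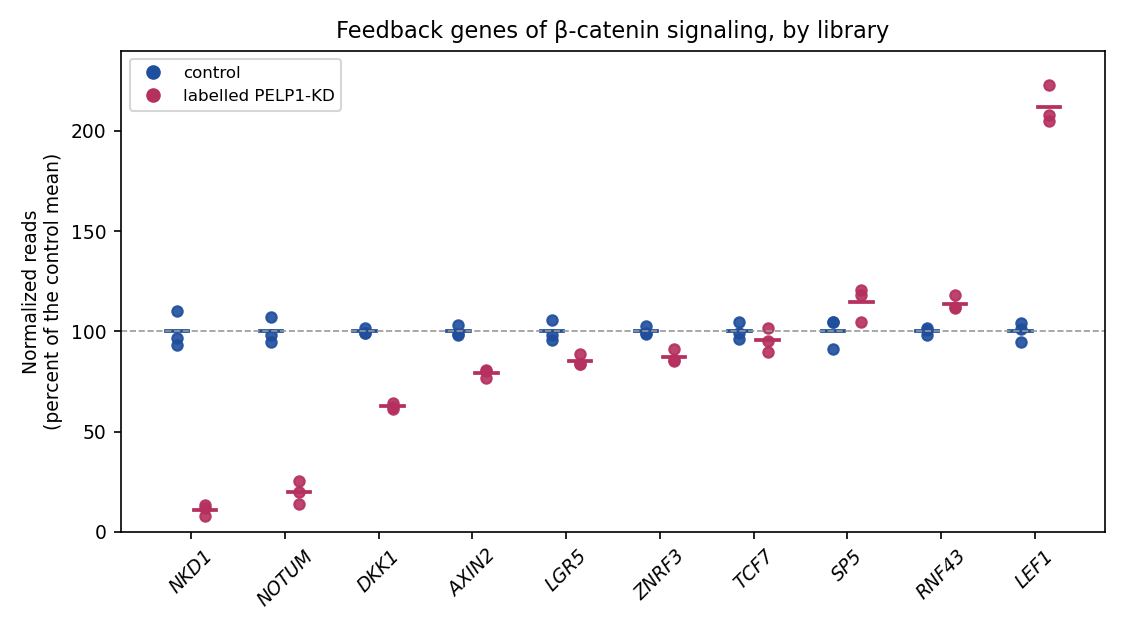
Normalized reads of 9 WNT genes tied to β-catenin feedback and of SP5, a further target of β-catenin, in each library as a percent of the gene's control mean (y axis), with bars at group means. NKD1 lay at 8.12 to 13.2% and NOTUM at 13.9 to 25.3% in PELP1-KD, AXIN2 at 76.9 to 80.8%, and all 3 PELP1-KD libraries of LEF1 lay above the control libraries.

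Where 26.8% of all genes tested were called in each direction, 3 of the 4 secreted inhibitors tested among the WNT genes were lower and 0 higher. DKK1, which binds LRP5 and LRP6 and blocks WNT co-reception, was by far the most abundant of them, with 94.2% of the summed level of this class in control. It had 8743, 8598 and 8427 reads in control and 4931, 4461 and 4964 in PELP1-KD. All 3 PELP1-KD libraries lay below the control libraries. Its level fell from 143 to 89.4 RPKM, which in normalized reads was 8098 ± 124 against 5071 ± 125 (SD, n = 3 each), with a log2 fold change of -0.68 (SE 0.04, adjusted p = 3.61e-12). SFRP4, a decoy that binds WNT proteins (chr7:37945535-37956525, minus strand), had 46, 59 and 46 reads in control and 33, 9 and 16 in PELP1-KD. The groups did not overlap after scaling, but PELP1-KD replicate 1 lay well above the other two. SFRP4 fell by 1.21 on the log2 scale (SE 0.30, adjusted p = 0.00212). Without that library the fall was 1.81 (adjusted p = 5.74e-05), and without PELP1-KD replicate 2 it was 0.93 (adjusted p = 0.0170). DKK3, a relative of DKK1 that does not act on LRP co-receptors in the same way, did not pass (log2 fold change -0.04, adjusted p = 0.607). The other 5 inhibitors were not tested, and SFRP1, SFRP2 and DKK2 had 0 reads in every library. The summed level of the class was 150 to 154 RPKM in control and 93.5 to 97.5 in PELP1-KD. Secreted WNT inhibitors outside the rule did not all fall. WIF1 was called higher (log2 fold change 0.66, adjusted p = 0.0227), though not in DESeq2 (adjusted p = 0.0588). FRZB (-0.40, adjusted p = 0.286) and SOSTDC1 (-0.31, adjusted p = 0.303) did not pass.

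The 250 bases before the start of DKK1 are shown because DKK1 was the most abundant inhibitor and because of a letter search. Windows were found for 38 of the 56 WNT genes, 48 in all. Of these, its own alone held CTTTGA, a form of the core of the site that TCF/LEF factors bind. The form CTTTGT, which also stands in the bases below, was neither searched nor marked. Capitals mark both matches to CTTTGA, which begin 149 and 95 bases upstream of the start, the first read from the other strand as TCAAAG. The 250 bases shown lie at chr10:54073791-54074040 of hg19 on the plus strand and come from RefSeq.
DKK1: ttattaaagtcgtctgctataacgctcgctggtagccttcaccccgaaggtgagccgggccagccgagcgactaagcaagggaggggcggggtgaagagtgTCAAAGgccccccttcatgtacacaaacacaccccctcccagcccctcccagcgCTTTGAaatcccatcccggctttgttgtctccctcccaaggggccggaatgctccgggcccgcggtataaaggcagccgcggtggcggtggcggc

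The promoter of FZD9, the frizzled gene that fell most, is shown beside it as a window without CTTTGA on either strand (chr7:72847858-72848107, plus strand, hg19).
FZD9: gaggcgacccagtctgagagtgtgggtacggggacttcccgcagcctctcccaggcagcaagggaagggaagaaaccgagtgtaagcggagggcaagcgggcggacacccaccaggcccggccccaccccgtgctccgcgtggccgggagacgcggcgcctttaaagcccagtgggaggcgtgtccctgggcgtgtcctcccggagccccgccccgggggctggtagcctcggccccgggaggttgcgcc

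Of the 38 WNT genes with a RefSeq window, 22 were tested. The other WNT genes had no window and were not searched, among them NKD1, NOTUM, AXIN2, ZNRF3, LGR5, WNT11 and FZD7. The windows searched ran from 250 bases before the start to 50 bases after it. The letters CTTTGA, searched on both strands, stood in 1 of the 48 windows and in 12.9% of all 35116 windows of the same length. Of all windows, 1.29% held at least 2 matches. A match of 6 letters is a description of the sequence and not a bound site.

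The frizzled receptors, the surface receptors of WNT proteins, changed in both directions, with 3 of the 9 tested higher, 4 lower and 2 not called, where 26.8% of all genes tested were called in each direction. FZD7 had 1519, 1563 and 1419 reads in control and 2803, 2480 and 2766 in PELP1-KD (chr2:202899310-202903160, plus strand). The PELP1-KD libraries were all far above control. In normalized reads the level was 1415 ± 74.7 in control and 2842 ± 69.8 in PELP1-KD (SD, n = 3 each), and the log2 fold change was 1.01 (SE 0.05, adjusted p = 5.04e-13). It lies at the 2-fold threshold, with values of 0.98 to 1.05 when 1 library was left out. FZD4 rose by 0.73 (SE 0.05, adjusted p = 9.39e-11), from 2300, 2061 and 2248 reads to 3543, 2939 and 3268. FZD3 rose by 0.70 (adjusted p = 8.97e-08), from 532, 443 and 433 reads to 712, 605 and 713. FZD4 and FZD3 did not overlap between the groups.

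FZD5 was the most abundant frizzled gene. It had 6396, 6032 and 6142 reads in control and 4890, 4254 and 5005 in PELP1-KD. The libraries of each group lay close together and the groups were apart, at 5835 ± 46.1 and 4990 ± 22.8 normalized reads (SD, n = 3 each). The log2 fold change was -0.23 (SE 0.03, adjusted p = 1.75e-05). FZD9, at chr7:72848109-72850450 on the plus strand, had 109, 119 and 130 reads in control and 51, 43 and 43 in PELP1-KD. Its level in every PELP1-KD library was below every control library, and it fell to 43.0% of control (log2 fold change -1.22, SE 0.16, adjusted p = 2.60e-06).

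FZD8 and FZD1 were called lower on narrower grounds. FZD8 had 177, 184 and 180 reads in control and 102, 132 and 149 in PELP1-KD (log2 fold change -0.33, adjusted p = 0.0408). Its call was lost without control replicate 1, 2 or 3 (adjusted p = 0.0516, 0.111 and 0.0863) or PELP1-KD replicate 1 (-0.17, adjusted p = 0.257), and in DESeq2 (adjusted p = 0.0789). FZD8 also shares 81 bases of exon on its own strand with MIR4683. FZD1 overlapped between the groups at a log2 fold change of -0.22 (adjusted p = 0.0337), and its call was lost without control replicate 2 or 3 (adjusted p = 0.125 and 0.109) or PELP1-KD replicate 1 or 2 (0.121 and 0.0870), and in DESeq2 (0.0698). FZD2 (0.13, adjusted p = 0.223) and FZD6 (-0.01, adjusted p = 0.939) did not pass, and FZD10 had 0 reads in every library.

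Per length, the mix of frizzled RNA was different. In control FZD5 stood first with 28.3 RPKM, followed by FZD7 with 11.7 and FZD4 with 8.93, and none of these ranges overlapped. In PELP1-KD FZD5 had 24.2 RPKM (24.1 to 24.3) and FZD7 had 23.5 (22.8 to 23.9), so that these neighbours were close though their ranges stayed apart. FZD4 followed with 14.8. The share of FZD5 in the summed frizzled level went from 45.7% ± 0.60 to 32.4% ± 0.40 (SD, n = 3 each), and that of FZD7 from 18.9% ± 0.89 to 31.4% ± 0.47. The summed level was 61.6 to 62.3 RPKM in control and 73.9 to 75.2 in PELP1-KD. Among the lower genes in control, FZD6, FZD2 and FZD1 overlapped with their neighbours at about the same level, as did FZD8 and FZD9.

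**Figure D3:**
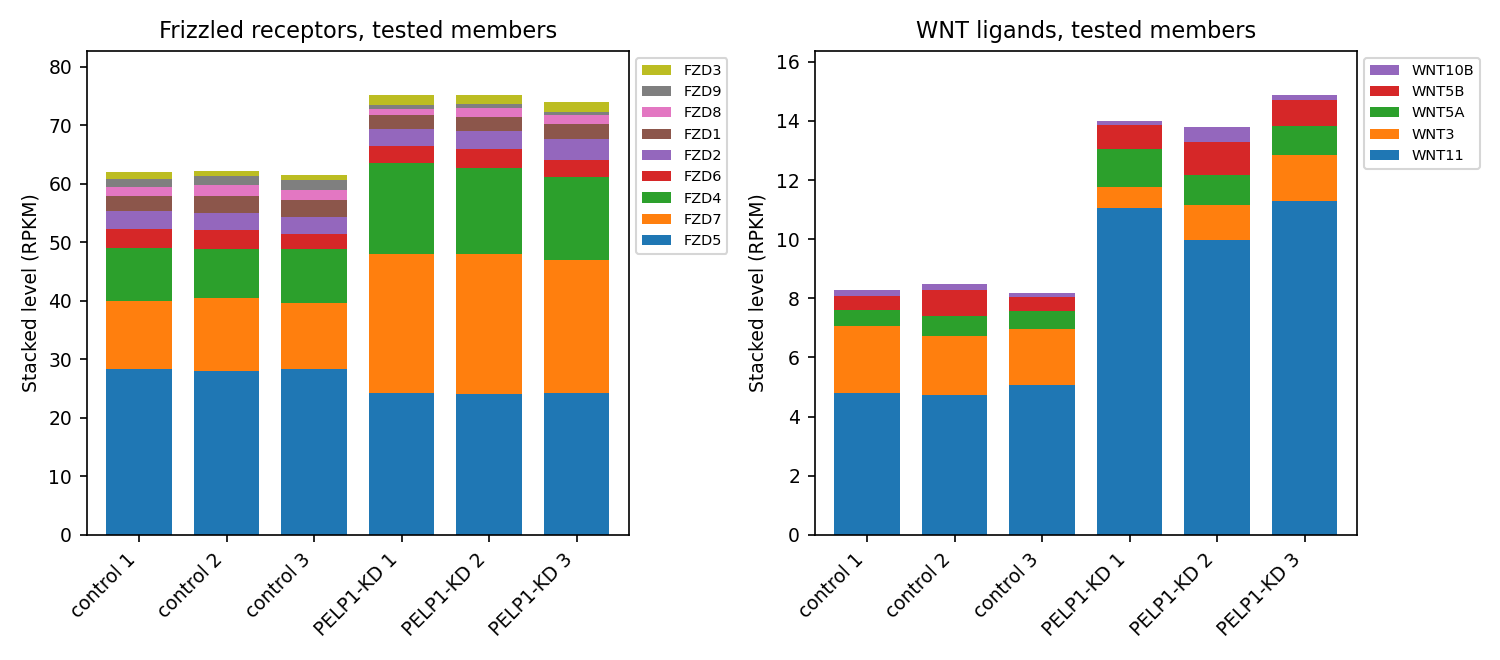
Level in RPKM (y axis) of the tested frizzled receptors (left) and the tested WNT ligands (right), stacked by gene, in each of the 6 libraries (x axis). FZD7 took 18.9% of the frizzled level in control and 31.4% in PELP1-KD on average, and WNT11 took 55.3% and 73.0% of the level of all ligands, the untested ones (not drawn) included.

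Of the co-receptors, LRP5 fell and LRP6 did not pass the test. LRP5 had 12454, 11842 and 12628 reads in control and 7618, 6899 and 8804 in PELP1-KD. The groups did not overlap. Its level went from 72.0 to 51.0 RPKM (log2 fold change -0.50, SE 0.04, adjusted p = 4.12e-09). LRP6, the co-receptor with the larger part in canonical signaling in many tissues, had 3120, 2883 and 2804 reads in control and 2789, 2540 and 2693 in PELP1-KD. Its groups overlapped after scaling, with a log2 fold change of 0.04 and a 95% interval of -0.06 to 0.13 (SE 0.04, adjusted p = 0.528). LRP5 thus made up 89.2% ± 0.60 of the summed co-receptor level in control and 85% ± 1.31 in PELP1-KD (SD, n = 3 each).

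Few WNT ligands were expressed in these cells. Of the 19 in the tables, 5 were tested, and 3 of these were higher, 1 lower and 1 not called, against 26.8% of all genes in each direction. WNT11, a ligand known mostly for signaling outside the β-catenin branch, was the most abundant (chr11:75897370-75917574, minus strand). It had 317, 298 and 322 reads in control and 653, 518 and 685 in PELP1-KD. Every PELP1-KD library was above every control library, and the means were 294 ± 11.3 and 652 ± 42.3 normalized reads (SD, n = 3 each), or 222% of control in PELP1-KD (log2 fold change 1.15, SE 0.07, adjusted p = 9.70e-11).

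WNT5A, another ligand best known for noncanonical signaling, had 110, 132 and 120 reads in control and 228, 160 and 180 in PELP1-KD, with no overlap. It rose by 0.81 on the log2 scale (SE 0.13, adjusted p = 2.06e-05). WNT5B, its close relative, had 38, 66 and 34 reads in control and 58, 70 and 65 in PELP1-KD. The groups overlapped, since control replicate 2 was high. The log2 fold change was 0.65 (SE 0.23, adjusted p = 0.0239), and 1.02 without that library (adjusted p = 0.00132). The call was lost without control replicate 1 (adjusted p = 0.0981), control replicate 3 (0.108) or PELP1-KD replicate 2 (0.115).

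WNT3, a canonical ligand, went the other way, with 116, 98 and 93 reads in control and 34, 47 and 73 in PELP1-KD. The groups did not overlap, but the PELP1-KD libraries were spread. WNT3 fell by 0.83 on the log2 scale (SE 0.20, adjusted p = 0.00169), with values of -1.12 to -0.58 when 1 library was left out. WNT10B had 15, 17 and 11 reads in control and 8, 33 and 12 in PELP1-KD and did not pass (log2 fold change 0.48, SE 0.46, adjusted p = 0.398).

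Per length, the order of the ligands in control was WNT11 (4.86 RPKM), WNT3 (2.05), WNT5A (0.621), WNT5B (0.599) and WNT10B (0.182), where WNT5A and WNT5B overlapped. In PELP1-KD the order of the means was the same, with WNT3 at 1.15 RPKM, WNT5A at 1.09 and WNT5B at 0.945. There WNT3 overlapped with WNT5A, and WNT5A with WNT5B. The summed level of all 19 ligands, untested ones included, was 8.54 to 8.95 RPKM in control and 14.3 to 15.5 in PELP1-KD. The share of WNT11 in it went from 55.3% ± 3.61 to 73.0% ± 2.94 and that of WNT3 from 23.2% ± 1.77 to 7.76% ± 2.49 (SD, n = 3 each).

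The other 14 ligands stayed under the filter on low counts, with at most 54 reads each over the 6 libraries, and WNT6, WNT7A and WNT8A had 0 reads in all of them. WNT4 had 3, 4 and 1 reads in control and 8, 8 and 20 in PELP1-KD, a ratio of 5.05 per library size with a counting interval of 2.31 to 12.6. WNT9B had 9, 4 and 4 reads in control and 1 in each PELP1-KD library, a ratio of 0.198 (0.0372 to 0.685). WNT16 had 0 reads in every control library and 5, 1 and 1 in PELP1-KD. These values rest on few reads and came with no call, except in the fit without a filter (adjusted p = 0.00107 for WNT4, 0.0426 for WNT9B and 0.0342 for WNT16).

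**Figure D4:**
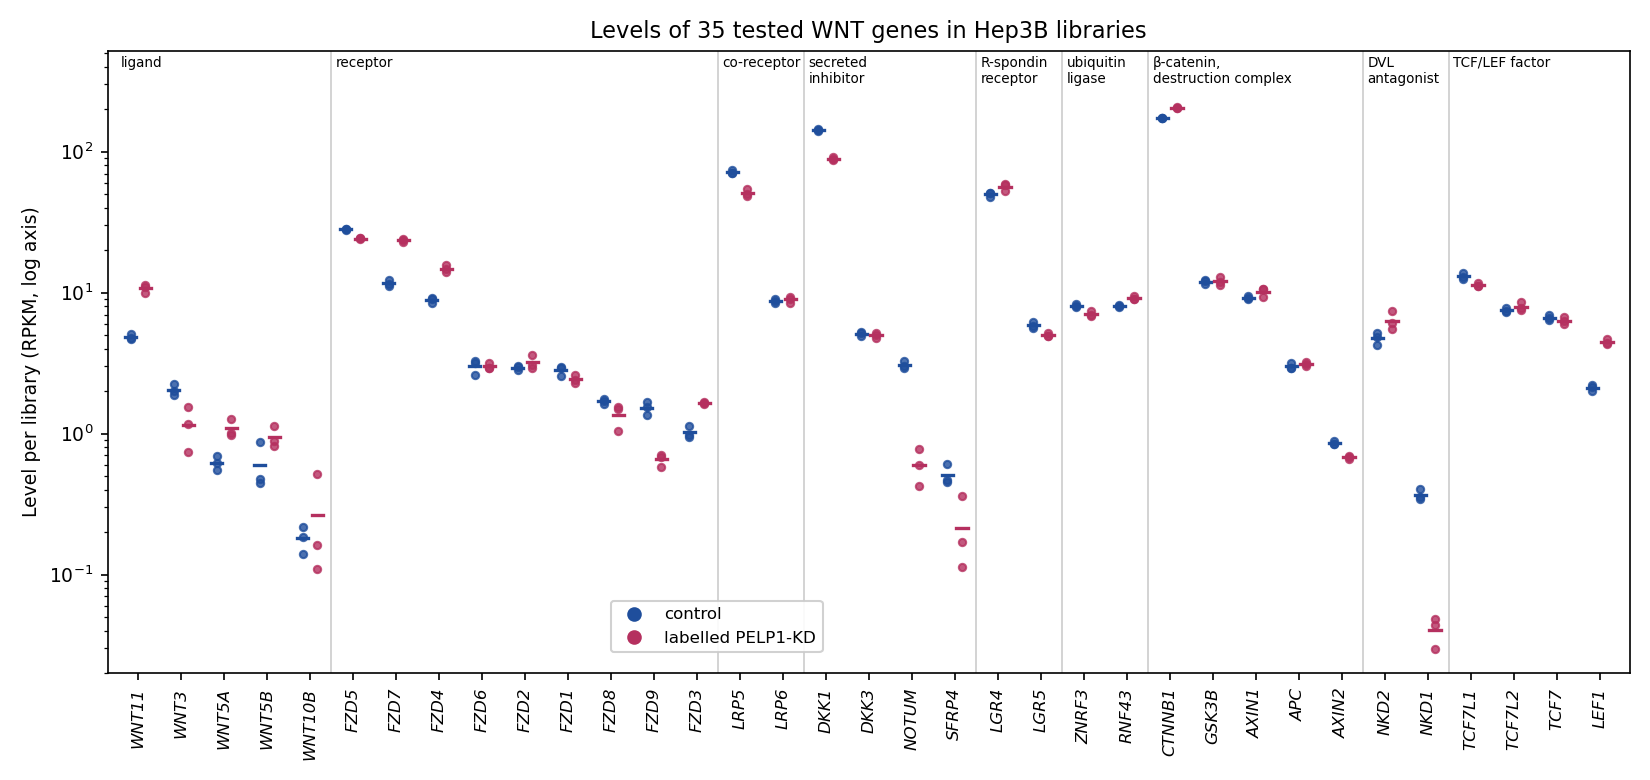
Level in RPKM (y axis, log scale) of the 35 WNT genes tested, ordered by role and level (x axis), with a point for each library and a bar at each group mean. CTNNB1 and DKK1 stood highest in control (173 and 143 RPKM), and NKD1 fell from 0.367 to 0.041 RPKM.

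CTNNB1, the gene of β-catenin, had the highest level per length of all the WNT genes. It had 22186, 20986 and 21310 reads in control and 23587, 20452 and 24041 in PELP1-KD. After scaling, the groups were well apart, at 20260 ± 127 and 24008 ± 142 normalized reads (SD, n = 3 each). It rose by 0.24 on the log2 scale, to 118% of control (SE 0.03, adjusted p = 4.97e-07). The RNA level says nothing of the protein, which the destruction complex controls.

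The parts of that complex moved little. APC, a scaffold, had 1217, 1079 and 1086 reads in control and 1113, 944 and 1067 in PELP1-KD, and its log2 fold change of 0.05 did not pass (95% interval -0.06 to 0.16, SE 0.05, adjusted p = 0.418). GSK3B, the kinase that marks β-catenin, had 2971, 2866 and 2690 reads in control and 2835, 2274 and 2540 in PELP1-KD, with a log2 fold change of 0.01 (95% interval -0.09 to 0.11, SE 0.05, adjusted p = 0.877). For both genes the groups overlapped. AXIN1, the constitutive partner of AXIN2, had 1155, 1084 and 1133 reads in control and 1048, 1046 and 1224 in PELP1-KD. Its groups overlapped, and the log2 fold change of 0.14 (SE 0.06, adjusted p = 0.0372) lost its call without control replicate 1 (adjusted p = 0.0855), control replicate 2 (0.121), PELP1-KD replicate 2 (0.160) or PELP1-KD replicate 3 (0.0929), and in DESeq2 (0.0697).

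NKD2, the paralog of NKD1, had 263, 303 and 286 reads in control and 307, 295 and 416 in PELP1-KD, with no overlap after scaling. It rose by 0.42 (SE 0.10, adjusted p = 0.00169), opposite to NKD1. Per length it was the more abundant of the pair, and the summed level of both was 4.62 to 5.48 RPKM in control and 5.61 to 7.40 in PELP1-KD. LGR4, the more abundant R-spondin receptor, had 9098, 8756 and 8255 reads in control and 9492, 8180 and 8742 in PELP1-KD. It rose by 0.19 (SE 0.04, adjusted p = 7.23e-04), opposite to LGR5. LGR6 had 5 reads in all. The R-spondins RSPO1 to RSPO4, the ligands of these receptors, had 0 reads in every library.

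Other genes of the pathway, from 5 lists by role that held 115 genes in the tables, were called about as often as genes in general. Of 97 tested, 24 were higher and 31 lower (56.7% called, against 53.6% of all genes tested), and 5 changed at least 2-fold (5.15%, against 7.65%). Their median log2 fold change was -0.031. PTK7, a receptor-like protein of the planar cell polarity branch, fell most. It had 995, 889 and 995 reads in control and 76, 69 and 91 in PELP1-KD, a log2 fold change of -3.44 (SE 0.09, adjusted p = 7.77e-17). Its level in PELP1-KD was 9.18% of control, with the groups far apart. FAM123B, now called AMER1, a membrane anchor for APC, had 180, 165 and 135 reads in control and 32, 21 and 21 in PELP1-KD, and fell by 2.52 (SE 0.18, adjusted p = 5.94e-10).

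CTHRC1, a secreted protein that favours the polarity branch, had 101, 84 and 133 reads in control and 32, 10 and 20 in PELP1-KD, and fell by 2.19 (SE 0.26, adjusted p = 6.78e-07). PYGO1, a nuclear co-factor of β-catenin, had 34, 28 and 19 reads in control and 13, 4 and 7 in PELP1-KD, and fell by 1.58 (SE 0.38, adjusted p = 0.00152). CD44, a surface glycoprotein listed among the targets of β-catenin, was the gene that rose at least 2-fold. It had 596, 628 and 587 reads in control and 1817, 1472 and 1838 in PELP1-KD, and rose by 1.67 (SE 0.06, adjusted p = 4.10e-15). In all 5 of these genes the groups did not overlap. They were picked for a called change of at least 2-fold, so the 58.8% of all genes tested is not a like comparison.

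By list, the genes for secretion and extracellular control had 3 higher and 3 lower of 12 tested. That is 25.0% each way, against 26.8% each way of all genes tested. WLS, which carries WNT proteins to the surface, rose by 0.47 (adjusted p = 2.16e-07), TMEM59 rose by 0.29, and GPC3, a glypican abundant in hepatocellular carcinoma, fell by 0.24 (adjusted p = 4.41e-07). The cytoplasmic relay and destruction complex had 3 higher and 9 lower of 23. There DACT2 rose by 0.43 and TNKS, a tankyrase that destabilises AXIN, by 0.19, while CXXC5 fell by 0.47. The share called was 78.9% among the nuclear co-factors, above the 74.3% of the WNT genes, and 50.0 to 52.2% in the other lists. The nuclear co-factors had 6 higher (31.6%) and 9 lower (47.4%) of 19. Among them the Groucho co-repressors split, since TLE3 rose by 0.74 (adjusted p = 1.08e-10) while TLE1 fell by 0.60 (adjusted p = 3.49e-10) and their short relative AES fell by 0.59. HNF4A rose by 0.23.

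Genes of the branches outside β-catenin had 6 higher and 6 lower of 23 (26.1% each, near the 26.8% of all genes tested). Among them DAAM1 (0.34) and PRICKLE3 (0.48) were higher and RHOA (-0.26) lower. Targets of β-catenin that are not among the WNT genes above had 6 higher and 4 lower of 20. That is 50.0% called, against 53.6% of all genes tested, of which 26.8% were called in each direction. These targets too went both ways, and were called about as often as genes in general. TCF4, an E-box factor that is not the TCF7L2 protein often given that name, rose by 0.50. TNFRSF19 fell by 0.91 (adjusted p = 1.29e-10) and MYC fell by 0.44 (adjusted p = 8.17e-08). SP5, which β-catenin induces directly in many cells, had a log2 fold change of 0.20 and did not pass (adjusted p = 0.05002), though it did with the replicate number as a block (adjusted p = 0.0268).

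**Figure D5:**
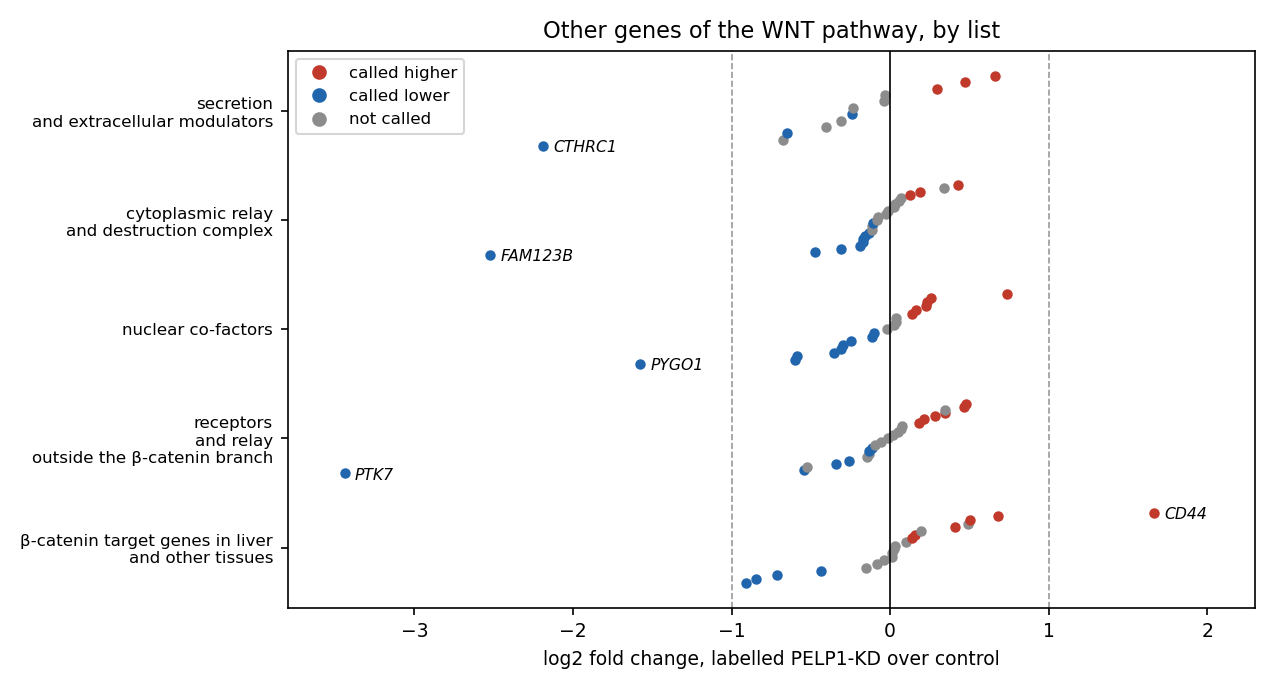
Log2 fold change of PELP1-KD over control (x axis) for the 97 other pathway genes tested, as points in 5 lists by role (y axis), with dashed lines at a 2-fold change and the 5 genes past it named. Red marks genes called higher (24), blue genes called lower (31) and grey the rest (42), and every list holds genes of both directions.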

How the data were processed

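RNA-seq libraries of Hep3B cells (3 control, 3 PELP1-KD, by the sample labels) were compared. The authors deposited a table of estimated counts per gene for each library. By the file header these came from featureCounts 1.5.0-p1 on hg19 RefSeq exons, by strand and at a mapping quality of at least 2, and reads with several matches or genes were split into fractions (10.6 to 13.3% of values were not whole). Submitters' processing notes name HISAT2, SAMtools and featureCounts, while the methods name other programs. The labels disagree with each other on the extraction kit, the read layout, and poly(A) selection or ribosomal depletion.

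Values were rounded to whole numbers. Genes that passed filterByExpr were fitted with edgeR 4.0.16 (TMM, glmQLFit robust, glmQLFTest, R 4.3.3), and p-values were adjusted by Benjamini-Hochberg over all 14537 genes tested. Calls used an adjusted p below 0.05, and 2-fold an absolute log2 fold change of at least 1. SE was taken as the size of the log2 fold change divided by the root of F. Normalized reads are scaled to the TMM library size, and RPKM use exon lengths of the tables. Intervals for ratios of few reads were computed by the exact binomial method, for counting error alone. The fit was tested on simulated data with 2-fold changes in 200 genes, which did not cover smaller changes or genes of few reads.

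The WNT genes and other lists were chosen with earlier results of these data known. By rule, reads per library were given for WNT genes changed at least 2-fold, CTNNB1, APC, AXIN1, AXIN2, GSK3B, LRP5, LRP6, TCF7L2 and the most abundant gene of each role. Other pathway genes were named if changed at least 2-fold or among the 2 of smallest p in each direction of a list. Reads of other WNT genes were added after their values were seen, as were SP5, WIF1, FRZB and SOSTDC1. Alternatives were other normalizations and filters, DESeq2 1.42.0, a block for the replicate number, and fits without 1 library.

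By deviations from the group means over 6370 genes, the libraries were matched by replicate number only for number 3. Libraries of equal number had correlations of 0.336, 0.247 and 0.666 for numbers 1, 2 and 3. PELP1-KD replicate 1 was closer to the second control library (0.418) than to the first. PELP1-KD replicate 2 was about as close to the first control library (0.244) as to the second. Numbers 1 and 2 were thus not told apart by these values. No library was a copy of another.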

Additional observations from a re-analysis of the deposited data

How the results depend on the processing

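Over 14 alternatives, 26 of the 35 WNT genes tested kept their direction and call in every one that tested them. Without a filter on low counts, 5 WNT genes were called higher by at least 2-fold, against 3 with it, because more genes were tested. With a minimum mean of 1 RPKM, 2 were called lower by at least 2-fold, against 4, because NKD1 and SFRP4 were below it and not tested. With 1 library left out, 2 to 4 were higher and 3 to 5 lower by at least 2-fold. The replicate block changed no call of a WNT gene. It called 27 of the other pathway genes higher and 36 lower, against 24 and 31 without it. It changed that of PELP1 (log2 fold change -0.083, adjusted p = 0.0106), whose values ranged from -0.10 to -0.040 when 1 library was left out. Directions turned for 3 genes that passed in none of these fits. WNT10B had -0.41 without PELP1-KD replicate 2 and 0.85 without PELP1-KD replicate 1. FZD6 had 0.0075 with library size alone and -0.096 to 0.053 with 1 library left out, and GSK3B -0.046 to 0.054. The cause of these turns was not tested. The calls of AXIN2, AXIN1, FZD1, FZD8, WNT5B and LGR5 were lost without single libraries, as given beside them. FZD8 was also lost with library size alone (adjusted p = 0.0511) and AXIN2 without a filter (0.0600). At this depth the values of the 14 untested ligands rest on at most 54 reads each.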
